A study of Mus musculus with 6 samples.

Results

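The genes of the antibody constant regions and the J chain were followed, 10 in all: the 8 heavy-chain constant genes Ighm, Ighd, Ighg3, Ighg1, Ighg2b, Ighg2c, Ighe and Igha, the kappa light-chain constant gene Igkc, and Jchain, the joining chain of polymeric antibodies. They were taken by name from the 41325 gene rows of each library; all 10 were found and all 10 had enough reads to be tested. Bulk RNA-seq was done on 6 libraries, 3 from mice given an elemental diet (1.6 kcal in 0.8 mL per day by mouth, a liquid formula with amino acids in place of whole protein) and 3 from control mice given 0.8 mL of saline per day by mouth. Diet and saline were given in 2 doses per day on 5 days a week, and all mice had 7 days of habituation. All mice were ICR females, an outbred stock, bought at 10 weeks of age, fed the same chow, and injected intraperitoneally with 5-fluorouracil, an antimetabolite that blocks thymidylate synthesis, at a daily dose of 20 mg/kg given 2 days a week for 3 weeks. No group without 5-fluorouracil was analysed here, and both groups carry the tissue label salivary gland. The labels give 3 mice per group without tying each library to a mouse, so the tests reflect only how these libraries vary, which may be technical.

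An antibody joins heavy chains to light chains, and the heavy-chain constant region sets its isotype. Naive B cells splice the same transcript to the mu (Ighm) or delta (Ighd) exons, and class switching later joins the rearranged variable segment to a gamma (IgG), epsilon (IgE) or alpha (IgA) gene further along the locus. The J chain links IgM and IgA into polymers through a cysteine near the end of the secreted heavy chain, which the receptor Pigr can then carry across epithelium. In salivary glands the antibody-secreting cells make mainly IgA, whereas in spleen most B cells carry IgM and IgD.

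The 8 heavy-chain genes lie on the minus strand of GRCm38 chromosome 12, from Ighm at 113418558 to 113422730 through Ighd, Ighg3, Ighg1, Ighg2b, Ighg2c and Ighe to Igha at 113254830 to 113260236. Igkc lies on chromosome 6 (70726435 to 70726966, plus strand) and Jchain on chromosome 5 (88519809 to 88527891, minus strand). The last 60 coding bases of the secreted forms, from the GENCODE M21 transcripts of GRCm38, show what sets IgM and IgA apart from IgG as partners of the J chain and where the kappa chain ends. Each is printed 5′ to 3′, and capitals mark cysteine codons read in frame.
Ighm, chr12:113420870-113420929, minus strand: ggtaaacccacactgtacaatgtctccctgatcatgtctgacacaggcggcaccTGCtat
Igha, chr12:113258771-113258830, minus strand: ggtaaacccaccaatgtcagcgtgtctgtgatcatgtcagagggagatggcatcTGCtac
Ighg1, chr12:113328979-113329038, minus strand: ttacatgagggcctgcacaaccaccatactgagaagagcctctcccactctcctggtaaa
Ighg2b, chr12:113306392-113306451, minus strand: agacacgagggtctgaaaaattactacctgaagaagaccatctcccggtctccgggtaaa
Ighg2c, chr12:113287392-113287451, minus strand: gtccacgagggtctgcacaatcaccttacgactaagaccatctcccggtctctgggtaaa
Ighg3, chr12:113359668-113359727, minus strand: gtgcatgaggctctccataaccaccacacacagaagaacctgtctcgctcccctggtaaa
Igkc, chr6:70726695-70726754, plus strand: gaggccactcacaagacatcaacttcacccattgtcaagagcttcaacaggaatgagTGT
Ighm and Igha each had 1 cysteine codon in these 20 codons, the one before the last, which is the residue that bonds with the J chain. The 4 gamma genes had 0 in the same window, and Igkc ended on its cysteine codon, which bonds with the heavy chain.

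The libraries held 29053287 to 33073125 reads assigned to genes. The 10 genes took 0.277% to 0.344% of all reads in the elemental diet libraries, against 2.62% to 2.92% in the saline libraries. Markers went against the tissue label: of 16 genes of salivary acini and ducts 10 had too few reads to be tested, and Smgc, Pip, Bpifa1, Prb1 and Dcpp1 had 0 reads in all 6 libraries. The 16 genes together reached 7.95 to 12.6 CPM (reads per 1e6 reads assigned to genes) with elemental diet and 27.9 to 28.5 CPM with saline, so salivary gland is used below only as the label. Of other cell types, all 9 erythroid and all 9 neutrophil genes rose and all 10 tested spleen and lymphoid stroma genes fell. The 11 spleen and lymphoid stroma genes summed to 502 to 588 CPM with elemental diet and 2861 to 2954 CPM with saline. The erythroid genes summed to 33653 to 35083 CPM with elemental diet and 2504 to 3926 CPM with saline, and their part in the results below was not tested. The 8 fat cell genes summed to 120 CPM in elemental diet library 1, against 22.8 and 23.2 in the others of that group, and to 200 CPM (199.7) in saline library 1, against 94.7 and 101 in the others.

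The constant-region transcripts were far lower with elemental diet than with saline. Of the 10 genes 9 fell and 0 rose by edgeR's quasi-likelihood test with Benjamini-Hochberg adjustment over 18303 genes at 0.05, and the remaining gene, Ighe, did not pass. Over all genes tested, 40.2% fell, 38.0% rose and 78.1% passed in either direction; the median log2 fold change of the 10 was -1.97, against -0.08 over all genes. Bulk libraries cannot tell fewer cells of a type from less RNA per cell.

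Ighm, the heavy chain of IgM, stood at 1083, 1127 and 1045 normalized CPM in the elemental diet libraries, against 8409.65, 8672 and 9090.3 in the saline libraries (log2 fold change -3.01, SE 0.05, edgeR adjusted p = 6.7e-15). Ighd, the IgD heavy chain that marks mature naive B cells, had 110.4, 104 and 103 CPM in the elemental diet libraries, against 1191, 1169.7 and 1105 in the saline libraries, a log2 fold change of -3.45 (SE 0.05, adjusted p = 4.7e-15). All 3 elemental diet libraries lay far below all 3 saline libraries for both genes, and the log2 fall was larger for Ighd than for Ighm. Groups did not overlap in 81.0% of all genes tested, and 41.9% were lower without overlap, as the 9 members were.

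The gamma genes, whose products are the subclasses of IgG, had smaller log2 falls, with larger SE for Ighg1, Ighg2b and Ighg2c than for any other member that fell. Ighg1 had 236, 250.4 and 172 CPM in the elemental diet libraries, against 574, 588 and 923 in the saline libraries, a log2 fold change of -1.66 (SE 0.28, edgeR adjusted p = 0.0048). Ighg2b had 369, 356 and 221 CPM in the elemental diet libraries, against 735, 839.5 and 1086 in the saline libraries, a log2 fold change of -1.49 (SE 0.28, adjusted p = 0.0074). The third elemental diet library was the lowest of its group for these and for every other member that fell. The third saline library was the highest of its group for every member that fell except Ighd and Igha.
Ighg2c had 352, 308 and 289 CPM in the elemental diet libraries, against 804, 849.5 and 1320.2 in the saline libraries, a log2 fold change of -1.65 (SE 0.24, adjusted p = 0.0028). Mouse strains carry either Ighg2a or Ighg2c; the haplotypes of these outbred mice were not given in the sources used here, and the reads were those counted on the Ighg2c row. Ighg3, a subclass often made without T cell help, had 171, 182 and 134 CPM in the elemental diet libraries, against 551 (550.5), 551 and 622 in the saline libraries, a log2 fold change of -1.82 (SE 0.12, adjusted p = 3.4e-06). The groups did not overlap for any of the 4 gamma genes.

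Igha, the IgA heavy chain, fell about as far as Ighd, to 189, 189 and 173 CPM in the elemental diet libraries, against 1973, 2053 and 1725 in the saline libraries (log2 fold change -3.38, SE 0.07, edgeR adjusted p = 2.3e-13). Here, as for Ighd, the third saline library was the lowest of its group, the opposite of its place for every other member that fell. Ighe, the heavy chain of IgE, had 10, 9 and 33 reads in the elemental diet libraries, against 9, 3 and 14 in the saline libraries. These ranges overlapped, and at this depth no difference was detectable (log2 fold change 1.30, SE 0.66, adjusted p = 0.0903); without elemental diet library 3, which held 33 of the 52 reads of its group, the log2 fold change was 0.38 (adjusted p = 0.624). Without elemental diet library 1 it was 1.60 and passed (edgeR adjusted p = 0.0468).

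Igkc, the constant region of most mouse light chains, had 908, 874 and 744 CPM in the elemental diet libraries, against 8061, 7954 and 9250.2 in the saline libraries, a log2 fold change of -3.32 (SE 0.09, edgeR adjusted p = 7.8e-10). Jchain had 293, 292 and 263 CPM in the elemental diet libraries, against 1152, 1212 and 1294 in the saline libraries, a log2 fold change of -2.11 (SE 0.06, adjusted p = 5.6e-13). Jchain thus fell 4.31-fold, against 8.04-fold for Ighm and 10.4-fold for Igha, the heavy chains it links.

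**Figure D1:**
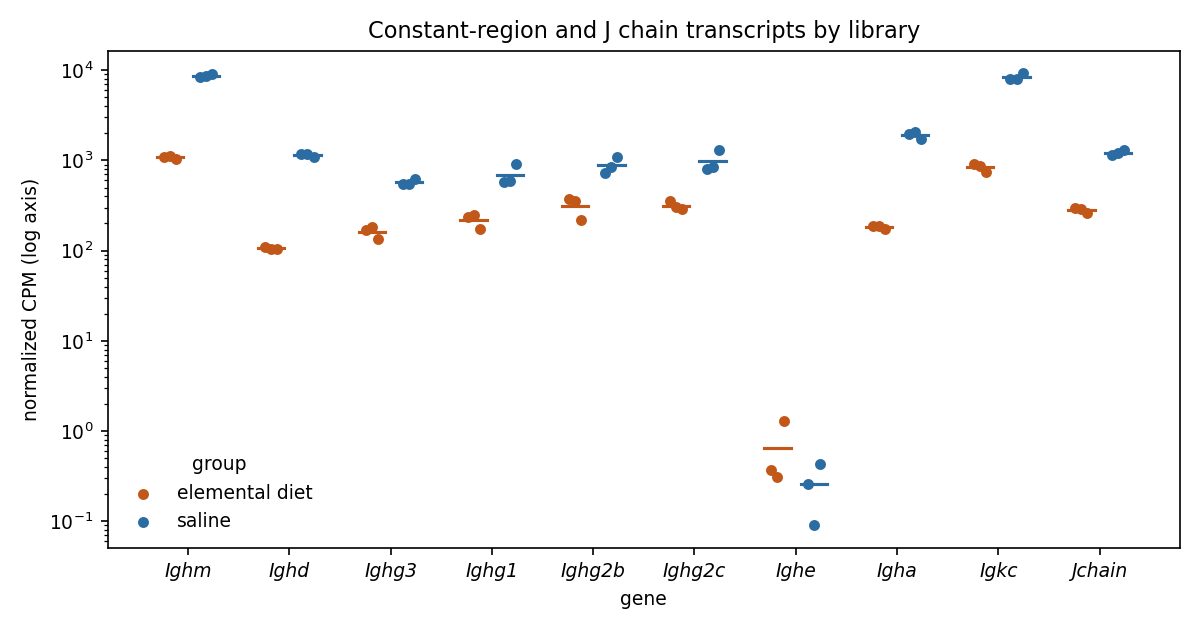
Normalized CPM on a log axis for each gene, with elemental diet libraries left of saline libraries; points are libraries and bars are means of 3. In 9 genes every elemental diet library lies below every saline library, by the least in the gamma genes, and in Ighe the groups overlap.

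Igkc rests almost wholly on reads that were not counted as unique, unlike the other 9 genes. In Ighm, Igha, Ighe and Jchain 100% of the reads were unique in every library, and in Ighd and the gamma genes the group means were 99.3% to 100%. In Igkc 0.0544% ± 0.0139 of the reads were unique with elemental diet and 0.0480% ± 0.0056 with saline (SD, n = 3). No window of 75 bases, the read length, in the Igkc transcript was found in a transcript of another gene, and Igkc lies inside the span of the noncoding gene Gm30211 (70719074 to 70740554) while 0 of its annotated exons overlap Igkc. Of the 75-base windows of Ighg2b, Ighg2c and Ighg3, 0.768%, 0.480% and 0.574% occurred in transcripts of another gene, mostly Ighg2b or Ighg3, and 0 of those of Ighg1. From the few unique Igkc reads, 10, 14 and 13 with elemental diet and 131, 143 and 129 with saline, the log2 fold change was -3.18.

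The files give each of the 8 heavy-chain genes and Igkc as 1 exon as long as the gene and list no exon-exon read for them, yet they also list intron reads for the heavy-chain genes. How these were told from exon reads is not stated, so their intron shares are given as listed. Secreted and membrane forms, which use different last exons, were not told apart, since the files give 1 value per gene. Jchain, with annotated introns, had 0.592% ± 0.105 of its reads in introns with elemental diet and 0.402% ± 0.0460 with saline (SD, n = 3), without overlap between groups, while the reads listed as intron reads of Ighg2c were 2.68% ± 0.138 with elemental diet and 3.48% ± 0.142 with saline (for both, exact two-sided permutation p = 0.1, 0.4 after Benjamini-Hochberg adjustment over 8 genes; p = 0.1 is the smallest that 3 against 3 libraries allow). The intron shares of Ighm, Ighd, Ighg1, Ighg2b, Ighg3 and Igha overlapped between groups. Over all genes 8.39% to 8.82% of reads were intron reads with elemental diet and 13.7% to 14.4% with saline, and the part of this in the shares of Ighg2c and Jchain was not tested.

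Levels were set beside each other only per length, as CPM per kilobase of merged GENCODE exons, a level that depends on how much of each untranslated end is annotated. With elemental diet the order was Igkc (1424), Ighm (517), Ighg2c (215), Ighg2b (106), Jchain (101), Ighg1 (76.2), Igha (61.9), Ighg3 (58.2), Ighd (50.2) and Ighe (0.368). With saline it was Igkc (17594.5), Ighm (5142), Ighg2c (830.3), Igha (799), Ighd (676), Jchain (538), Ighg2b (368), Ighg1 (298), Ighg3 (254) and Ighe (0.182). With elemental diet Ighg2b overlapped both Jchain and Ighg1, and the neighbours from Ighg1 to Ighd overlapped. With saline Ighg2c overlapped Igha and Ighd, Ighg2b overlapped Ighg1, and Ighg1 overlapped Ighg3. Igha was thus at rank 7 with elemental diet and 4 with saline, and Ighd at rank 9 with elemental diet and 5 with saline.

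The isotype mix inside each library, which needs no scaling between libraries, separated the groups in every library, though 3 against 3 libraries cannot reach p = 0.05 in an exact test. The gamma genes together made up 44.9%, 43.6% and 38.2% of heavy-chain constant reads in the elemental diet libraries, against 18.7%, 19.2% and 24.9% in the saline libraries, a difference of 21.3 percentage points (SE 2.86). Ighm was the largest single gene in all 6 libraries, at 43.1%, 44.8% and 48.9% with elemental diet and 59.1%, 58.9% and 57.3% with saline. The difference was -12.8 points (SE 1.80). In elemental diet library 1 the gamma genes together had more reads than Ighm, but this order depended on exon length. Per kilobase of merged exons they took 44.4% in that library, against 45.4% for Ighm. Elemental diet library 3 held the least IgG and the most IgM of its group, and saline library 3 the most IgG and the least IgM of its group, so these were the libraries nearest to the other group.

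The unswitched and IgA shares were lower and each IgG share higher with elemental diet. Ighd made up 4.46% ± 0.342 of heavy-chain constant reads with elemental diet and 7.76% ± 0.719 with saline, and Igha 7.71% ± 0.325 with elemental diet and 12.9% ± 1.75 with saline (SD, n = 3). Ighg1 took 9.13% ± 0.975 in elemental diet libraries and 4.62% ± 1.04 in saline libraries, and Ighg3 6.77% ± 0.479 in elemental diet libraries and 3.84% ± 0.0903 in saline libraries. Ighg2b took 13.1% ± 2.39 in elemental diet libraries and 5.90% ± 0.857 in saline libraries, and Ighg2c 13.3% ± 0.917 in elemental diet libraries and 6.58% ± 1.51 in saline libraries. Each of these shares was outside the range of the other group in every library. Ighe reached at most 0.0603% of these reads in any library, and its share, higher without overlap with elemental diet, rests on the few reads given above. All switched genes together made up 49.95% ± 3.23 of the reads with elemental diet and 33.8% ± 1.70 with saline. For each of these 10 shares a two-sided exact permutation test returned p = 0.1, also after adjustment over the 10, the smallest value that 3 against 3 libraries allow.

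**Figure D2:**
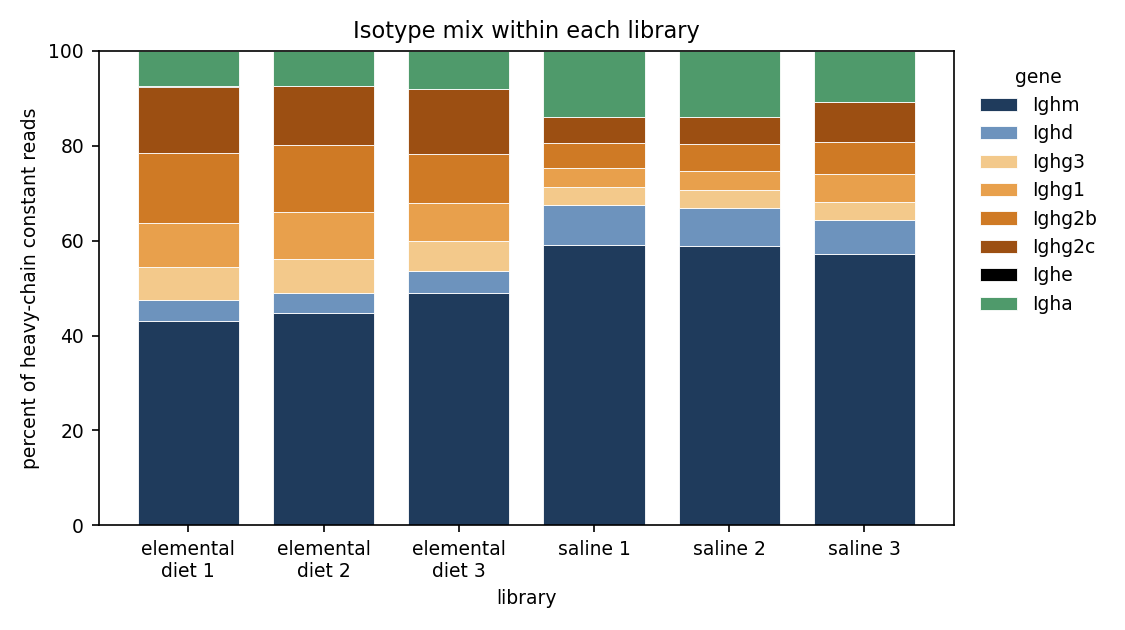
Percent of heavy-chain constant reads taken by each of the 8 genes, stacked for each library, elemental diet left and saline right. The orange bands of the 4 gamma genes sum to 38.2% to 44.9% with elemental diet and 18.7% to 24.9% with saline, and the green band of Igha is thinner with elemental diet; Ighe is too small to see.

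IgG outnumbered IgA by more with elemental diet. The reads of the 4 gamma genes were 5.97, 5.80 and 4.72 times those of Igha in the elemental diet libraries, against 1.35, 1.38 and 2.29 times in the saline libraries. Within IgG the subclass mix did not separate the groups. Ighg1 was 21.6% ± 1.05 of gamma reads with elemental diet and 21.9% ± 1.32 with saline (SD, n = 3), a difference of -0.29 points (SE 0.97). Ighg2b, Ighg2c and Ighg3 differed by 2.51, 0.35 and -2.56 points (SE 1.99, 2.39 and 1.56), and all 4 ranges overlapped (exact permutation p = 0.3 to 0.9, adjusted p = 0.8 to 0.9).

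Ratios between the chains also separated the groups. Igkc reads were 35.2% ± 0.813 of heavy-chain constant reads with elemental diet and 56.3% ± 2.15 with saline (SD, n = 3), a log2 difference of -0.68 (SE 0.04). Jchain reads were 22.3% ± 0.737 of those of Ighm and Igha together with elemental diet and 11.5% ± 0.453 with saline, a log2 difference of 0.96 (SE 0.04), and 11.9% ± 0.390 of all heavy-chain reads with elemental diet and 8.16% ± 0.0725 with saline. The J chain, whose partners are the isotypes with the capital cysteine codon printed above, was thus higher relative to them in each elemental diet library.
Ighd reads were 9.78% ± 0.468 of Ighm reads with elemental diet and 13.3% ± 1.02 with saline, a log2 difference of -0.44 (SE 0.08). The switched genes had 110%, 104% and 86.2% of the reads of Ighm and Ighd in the elemental diet libraries, against 48.3%, 49.6% and 55.7% in the saline libraries. No range overlapped between groups, and each of the 5 ratios gave an exact two-sided permutation p = 0.1, also adjusted over the 5. The lambda constant genes Iglc1, Iglc3 and Iglc2, which encode the other light chain, fell as well, by 4.14, 2.77 and 2.70 on the log2 scale.

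**Figure D3:**
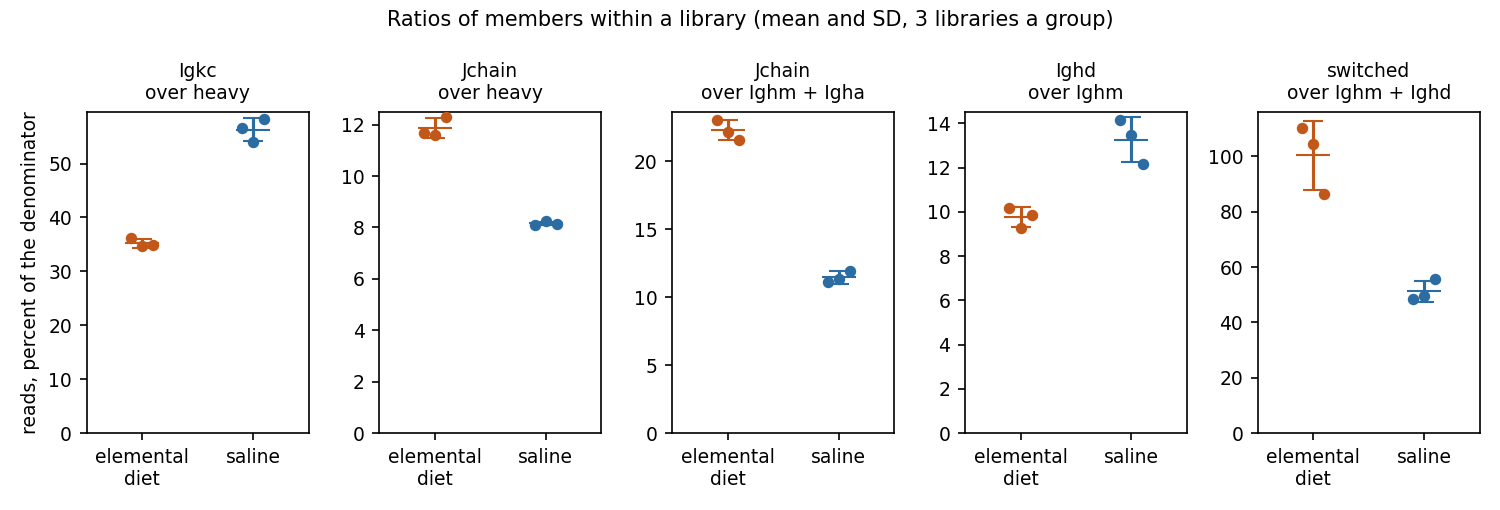
Reads of one gene or sum as a percent of another within each library; points are libraries, bars the mean and SD of 3, elemental diet left of saline, each axis starting at 0. Igkc over heavy and Ighd over Ighm are lower with elemental diet, and the ratios with Jchain or the switched genes on top are higher.

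The falls ran beside a fall of B cell transcripts as a whole. All 20 genes of a B cell identity list fell, with a median log2 fold change of -2.67, and their summed level was 1331 to 1480 CPM (1480.3) with elemental diet and 10406 to 11003 CPM with saline. Cd22, an inhibitory receptor of B cells, and Spib, a B cell transcription factor, were 8.28-fold and 6.36-fold lower. To set the members against these transcripts, the fit was repeated with the summed reads of the 20 genes as the library size. On that scale 92.2% of all genes passed, 90.4% as higher and 1.76% as lower, and all genes had a median log2 value of 2.53.

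Relative to the B cell list, 4 of the 10 members were lower and 6 higher with elemental diet, against 1.76% lower and 90.4% higher over all genes. A higher value on this scale therefore does not set a member apart. Ighd was lower by a log2 fold change of -0.83 (SE 0.07, edgeR adjusted p = 2.0e-09), with reads equal to 6.81% ± 0.107 of the list's reads with elemental diet and 12.1% ± 0.374 with saline (SD, n = 3). Igha, Igkc and Ighm were lower by -0.77, -0.71 and -0.39 (SE 0.07, 0.08 and 0.06). These 4 therefore fell further than the summed B cell list, where few genes did. On the scale of all transcripts, the list's own genes ranged from -0.36 (Btk) to -3.05 (Cd22). Ighm, at -3.01 there, lay inside that spread, while Igkc, Igha and Ighd, at -3.32, -3.38 and -3.45, lay beyond it. Relative to the list, Jchain was at 0.50 (SE 0.07) and Ighg3 at 0.79 (SE 0.10).
Ighg1, Ighg2b and Ighg2c stood at 0.94, 1.11 and 0.96 (SE 0.27, 0.27 and 0.23), all below the median of all genes. Their adjusted p was 0.0219, 0.0121 and 0.0116, and 0.0797, 0.0521 and 0.0601 without elemental diet library 1; without saline library 2 it was 0.0659 for Ighg1. Ighe was at 3.91 (SE 0.65), from the few reads given above. With unique reads the call of Igkc was lost (-0.54, adjusted p = 0.0800). With the plasma cell list as library size 1 member was higher and 8 lower, and the 4 gamma genes and Jchain turned negative.

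**Figure D4:**
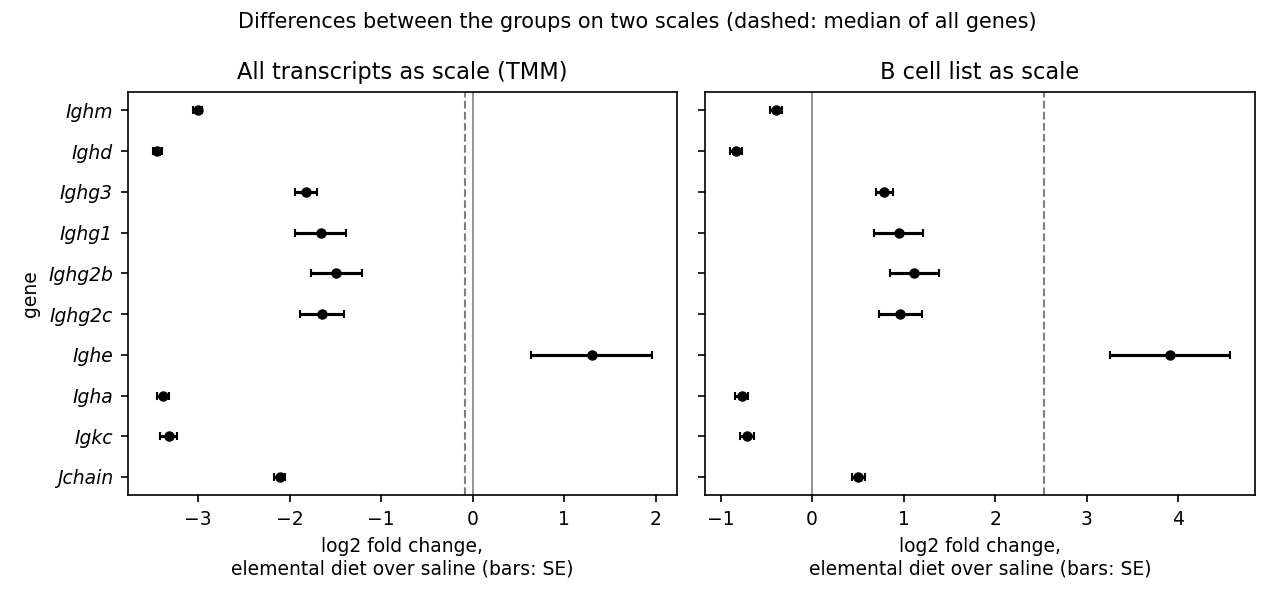
Log2 fold change of elemental diet over saline with its SE for each gene, on the scale of all transcripts (left) and of the B cell list (right); the dashed line is the median of all genes tested. On the left 9 genes lie below 0; on the right Ighm, Ighd, Igha and Igkc stay below 0, from -0.83 to -0.39, while the gamma genes and Jchain lie above it.

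Genes of antibody-secreting cells moved in both directions. A list of 20 plasma cell genes had 4 that rose and 16 that fell (median log2 fold change -1.21). Tnfrsf13b, which binds the survival factors BAFF and APRIL, and Pou2af1, a B cell coactivator, were 5.97-fold and 4.90-fold lower. Irf4, Slamf7, Prdm1, Mzb1, Tnfrsf17 and Xbp1 were among the others that fell (log2 fold change -2.53, -2.42, -1.96, -1.47, -1.37 and -1.20). Ell2, an elongation factor that favours the secreted form of the heavy chain, averaged 191 ± 14.1 CPM in elemental diet libraries and 58.5 ± 1.80 CPM in saline libraries (SD, n = 3). It rose with Tent5c, Sdc1 and Hyou1, which were 1.70-fold, 1.83-fold and 1.09-fold higher. The list summed to 1095 to 1124 CPM with elemental diet and 2281 to 2331 CPM with saline. The list of class switching enzymes and end-joining factors had 18 of 27 genes that rose and 6 that fell, with a median of 0.99. Exo1, Msh6 and Ung, which also act in DNA repair outside B cells, were 22.2-fold, 4.88-fold and 8.03-fold higher. The 10 genes of a cell division list all rose beside them, to a sum of 4401 to 4901 CPM with elemental diet, against 199 to 209 CPM with saline, and their part in this was not tested.

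Signals and receptors of the isotypes were mostly lower. Of 18 tested genes of switch signals 15 fell and 1, Tgfb1, rose, by 1.28-fold. Cd40, the receptor through which T cells help B cells, was 6.65-fold lower, and the 12 T cell genes all fell, to a sum of 72.3 to 84.3 CPM with elemental diet, against 634 to 779 CPM with saline; their part was not tested. Of 14 receptors and binders of constant regions 11 fell and 2 rose. Fcmr, a receptor for IgM, Fcgr2b, the inhibitory IgG receptor, and Fcer2a, the low-affinity IgE receptor of B cells, were 7.51-fold, 9.14-fold and 7.29-fold lower. Both that rose, Fcer1a and Ms4a2, encode chains of the high-affinity IgE receptor of basophils and mast cells, with means of 1.57 ± 0.300 and 3.53 ± 0.791 CPM in elemental diet libraries and 0.290 ± 0.0805 and 0.394 ± 0.198 CPM in saline libraries (SD, n = 3). Pigr, the epithelial carrier of J chain-linked antibody, averaged 0.295 ± 0.0874 CPM in elemental diet libraries and 1.98 ± 0.0983 CPM in saline libraries. Of the genes of B cell precursors, Vpreb3 fell, with 250 reads with elemental diet and 1924 with saline over 3 libraries each. Vpreb1, with 42 reads with elemental diet and 38 with saline, and Dntt, with 21 reads with elemental diet and 55 with saline, did not pass, and Igll1, Vpreb2, Rag1 and Rag2 had 0 to 3 reads in either group and were not tested.

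The genes most like Ighm over the 6 libraries, by Pearson's r of log2 CPM, were Fbxl12, Ankrd44 and Fmnl1, those most like Igha were Fchsd2, Man1a and Ccdc50, and those most like Jchain were Cd83, Notch1 and Nceh1 (r of 0.99977 to 0.99998). With r over 0.99 for 1468, 1420 and 1366 of 10153, 10153 and 10152 genes, these points fall into the 2 groups, so r is given as a description only.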

How the data were processed

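Per the labels' protocols, polyadenylated RNA was sequenced as paired reads of 75 bp; the labels name salivary gland as tissue but fibroblasts or keratinocytes in the extraction protocol. The deposited files, 1 per library, hold whole-number read counts per gene made by the authors, total and unique, split into exon and intron reads, per the file headers. The deposited TPM and RPKM columns were computed by the authors per exon length, per the file headers; RPKM served only as an alternative, and TPM was checked to equal the expression value. The submitters' processing notes name GRCm38 and GRCh37; the aligner and counter were not given in the sources used here.

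Total gene reads were tested with edgeR 4.0.16 in R 4.3.3 (TMM, filterByExpr, robust glmQLFit, glmQLFTest, two-sided, Benjamini-Hochberg at 0.05) over 18303 genes. Each SE was derived from the test's F statistic (size of the log2 value over root F). CPM carry the TMM factors, except summed list levels and per-kilobase levels. Shares and ratios of reads were compared by exact permutation. The alternatives used unique or exon reads, other scalings, no filter, DESeq2 1.42.0, a replicate block and each library left out. Replicate pairs differed by at least 2.93 times sampling noise. A count of 0 allows up to 3 reads, 0.0907 to 0.103 CPM; this covers counting error only. Same-numbered libraries deviated together with r of 0.146, -0.0232 and 0.120, and differently numbered ones with r of -0.162 to 0.0700. These values cannot settle whether the numbers pair the libraries. The main fit did not take them as pairs, and the fit with the block is given below.

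The members and lists were chosen with earlier results of these data known. From each list the 3 genes with the smallest p at a mean of at least 1 CPM were named, with any that passed against the list's median; not all are described. Marker, plasma cell gene, precursor gene and Pigr values outside that rule were chosen after they were seen.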

Additional observations from a re-analysis of the deposited data

How the results depend on the processing

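The 9 falls held in direction under every alternative run, and their calls held except where stated. Under no composition normalization and upper quartile scaling the median over all genes was -0.39 and -0.35 on the log2 scale, under RLE -0.04, and -0.08 as reported; the members' falls were 1.45 or more in all of them. With libraries left out the count of members higher ranged from 0 to 1, the 1 being Ighe without elemental diet replicate 1 (adjusted p = 0.0468; 0.0468 to 0.624 over all alternatives). All 10 shares and 5 ratios kept their direction in every alternative; without one library the gamma share differed by 19.9 to 23.3 points, the Igha share by -6.20 to -4.66, the log2 ratio of Jchain to Ighm plus Igha by 0.93 to 0.99, and with unique reads, exon reads, deposited RPKM or reads per kilobase of merged exons (the last added after seeing the data) the gamma share differed by 20.98 to 21.3 points.

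Relative to the B cell list the results depended on the list. With the plasma cell list as library size 1 member was higher and 8 were lower, and Ighg1 (-0.92), Ighg2b (-0.75), Ighg2c (-0.90), Ighg3 (-1.08) and Jchain (-1.37) changed sign, with Ighg2b not past the threshold; that list holds genes that rose. Without Cr2, Fcer2a, Fcmr and Tnfrsf13c in the B cell list (added after seeing the data) 6 members were higher and 4 lower. Leaving out libraries, 3 to 6 members were higher. With unique reads the call for Igkc was lost (-0.54, adjusted p = 0.0800; 1.8e-08 to 0.0800 over the alternatives), where only 10 to 143 reads a library remain.

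With the replicate number as a block, members higher relative to the B cell list came to 3, with Ighg1, Ighg2b and Ighg2c losing their call (adjusted p = 0.108, 0.0928 and 0.0560), and on the scale of all transcripts Ighg1 (-1.64, adjusted p = 0.0523; 3.8e-08 to 0.0523 over the alternatives) and Ighg2b (-1.50, adjusted p = 0.0654; 3.3e-07 to 0.0654) no longer passed; 14241 genes were called with the block and 14303 without. Not every library deviated most like its own number. Differences in small read classes turned sign with libraries left out: the intron share from -0.29 to 0.0688 points in Ighd and -0.37 to 0.13 in Ighg1, and the unique share of Igkc from -0.000467 to 0.0134 points.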
